A study of Homo sapiens with 32 samples.

Results

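The 7 genes described here are 6 members of the kallikrein cluster on chromosome 19, KLK3, KLK2, KLK15, KLK4, KLK11 and KLK10, and TMPRSS2, which encodes a serine protease anchored in the cell membrane. They were found by symbol among the 57445 gene entries of the largest count tables. They were chosen by the measured change of KLK3, up in one prostate cancer line and down in another in these same libraries, so their changes are given as a description, with no p-value. RNA was sequenced from 32 libraries of 4 human prostate cancer lines, in 16 groups of 2 libraries. For knockdown, cells of the lines LNCaP, C4-2, 22Rv1 and PC3 were infected with a scramble shRNA or with shCSN5, an shRNA against CSN5, the catalytic subunit of the COP9 signalosome, a complex that takes NEDD8 off cullin ubiquitin ligases. The shCSN5 titles carry the same hairpin tag in all 4 lines, so an effect of CSN5 loss and an effect of that hairpin on other RNAs cannot be told apart. For inhibition, cells received DMSO or CSN5i-3, a CSN5 inhibitor; the dose was 5 µM for LNCaP, 5 µM for 22Rv1 and 10 µM for PC3. The titles and descriptions of the C4-2 inhibitor libraries name opposite treatments: DMSO is the description of the libraries titled C5i, while those titled NT have CSN5i-3 at 1 µM as theirs. That comparison follows the titles alone (titled C5i minus titled NT), and no direction of the drug's effect is drawn from it. LNCaP is an androgen-sensitive line, C4-2 was derived from LNCaP as a castration-resistant subline, 22Rv1 likewise grows without testicular androgen, and PC3 cells do not depend on androgen. The hormone content of the medium and the duration of knockdown or treatment are not stated in the labels.

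Kallikreins are secreted serine proteases encoded side by side in one cluster, and in the prostate several of them are made by luminal epithelial cells under the control of androgens, which act through hormone response elements in DNA. KLK3, known as prostate-specific antigen or PSA, liquefies the seminal clot and is the blood marker used in prostate cancer, KLK2 is its nearest relative, and KLK15 and KLK4 are prostate-expressed proteases of the same cluster. TMPRSS2 is another androgen-induced gene, whose promoter drives the ERG oncogene in fusion-positive prostate cancers and whose protein primes several respiratory viruses for entry.

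The RefSeq promoter windows of the kallikreins are shown because the results turn on how far KLK3 and KLK2, with similar start regions, stayed together. Each window of 300 bases ends 50 bases after the start of the gene and is written 5′ to 3′ on the gene's own strand, in build GRCh38.p14. The table held entries for 6 of the 7 genes. For KLK4 and KLK15, which have 2 entries each, the entry holding a searched motif is printed. Capitals mark matches to AGAACA or GGAACA, half-sites of steroid hormone response elements, or to TATAAA, the TATA box, all searched on both strands, so that TTTATA is TATAAA on the other strand.
KLK3, chr19:50854665-50854964, plus strand: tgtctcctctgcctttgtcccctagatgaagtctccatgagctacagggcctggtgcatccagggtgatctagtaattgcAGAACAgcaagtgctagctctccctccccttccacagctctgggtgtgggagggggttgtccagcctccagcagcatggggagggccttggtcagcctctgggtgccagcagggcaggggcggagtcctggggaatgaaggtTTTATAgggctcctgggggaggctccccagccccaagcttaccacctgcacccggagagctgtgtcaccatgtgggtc
KLK2, chr19:50873189-50873488, plus strand: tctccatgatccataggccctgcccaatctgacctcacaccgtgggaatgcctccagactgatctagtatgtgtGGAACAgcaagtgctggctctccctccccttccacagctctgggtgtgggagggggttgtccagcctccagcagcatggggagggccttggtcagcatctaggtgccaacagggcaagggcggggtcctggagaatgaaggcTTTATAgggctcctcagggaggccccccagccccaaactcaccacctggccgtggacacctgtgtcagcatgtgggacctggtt
KLK4, chr19:50911346-50911645, minus strand: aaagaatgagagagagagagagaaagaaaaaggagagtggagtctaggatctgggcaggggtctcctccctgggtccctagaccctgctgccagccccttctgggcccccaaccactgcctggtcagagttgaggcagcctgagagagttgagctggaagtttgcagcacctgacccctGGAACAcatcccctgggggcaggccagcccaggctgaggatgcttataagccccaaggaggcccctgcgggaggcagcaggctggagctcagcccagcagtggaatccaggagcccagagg
KLK15, chr19:50833525-50833824, minus strand: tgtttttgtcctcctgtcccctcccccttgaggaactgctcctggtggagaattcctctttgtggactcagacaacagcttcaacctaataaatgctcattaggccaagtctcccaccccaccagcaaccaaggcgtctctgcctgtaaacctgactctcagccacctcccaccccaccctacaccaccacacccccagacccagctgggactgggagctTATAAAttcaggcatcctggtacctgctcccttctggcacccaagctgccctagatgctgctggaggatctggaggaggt
In KLK3 the half-site AGAACA lay at -170 to -165 and the TATA match at -28 to -23, counted from the start of the gene. In KLK2 the half-site GGAACA lay at -176 to -171 and the TATA match at -34 to -29. The KLK4 window held GGAACA at -71 to -66 and no TATA match, and the KLK15 window held TATAAA at -30 to -25 and no half-site. No searched motif was found in the windows of KLK10 and KLK11. The forkhead motif TGTTTAC and a pair of half-sites facing each other (AGAACA, 3 bases, TGTTCT) were found in none of these windows. Of all 35116 promoter windows of 300 bases, 14.8% held AGAACA, 14% GGAACA, 11.5% TATAAA and 3.42% TGTTTAC. Aligned end to end, the KLK2 and KLK3 windows were identical at 245 of 312 alignment columns (78.5%). Their transcripts shared few exact stretches: 11 windows of 50 bases, 0.43% of those of KLK3, occurred in both, and none of 75 bases. The aligner is not given, and whether reads of one gene were counted for the other was not tested. A match in these letters is a description and does not show that a factor binds.

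Levels are given as CPM, read counts scaled to a common library total after TMM scaling within a comparison, and changes as log2 fold changes, treated minus control, ± SE with n = 2 libraries per group. A gene is said to have risen or fallen where the edgeR quasi-likelihood test over all genes tested gave an adjusted p under 0.05. That groups did or did not overlap describes their libraries and is no call. The share of all genes whose groups did not overlap was not counted. Library totals ran from 20.6 to 50.9 M counts. COPS5, which encodes CSN5, was lower in every shCSN5 library, for example in PC3 114 and 107 CPM under scramble shRNA against 11.7 and 12.5 CPM under shCSN5. The LNCaP shCSN5 libraries stood apart from each other, with a median difference between replicates of 0.259 on the log2 scale against 0.0503 to 0.198 in the other 15 groups. The 5 luminal epithelial markers fixed for these lines (KRT8, KRT18, KRT19, CDH1 and EPCAM) were above the filter in all comparisons, at summed levels of 515 to 3993 CPM. Their sum was higher in both treated libraries than in both controls in LNCaP, C4-2 and 22Rv1, in either experiment and as titled for the C4-2 inhibitor. In PC3 the scramble and shCSN5 libraries overlapped, and with CSN5i-3 all 5 markers fell, from a sum of 1011 and 1020 CPM to 734 and 764 CPM. The part of these markers in the changes below was not tested. In bulk RNA, fewer cells making a transcript and less of it per cell cannot be told apart. The tables of the LNCaP and C4-2 inhibitor experiments do not list KLK10 and KLK11, and no gene in them had a maximum below 3 counts.

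KLK3 was the most abundant of the 7 genes per kilobase of transcript in LNCaP and C4-2, but not in 22Rv1 with scramble, DMSO or CSN5i-3. In LNCaP with scramble shRNA it stood at 1468 CPM per kilobase of merged exons, against 133 for KLK2, 112 for TMPRSS2, 97.7 for KLK4 and 2.29 for KLK15. In 22Rv1 with scramble shRNA KLK4 led at 148 CPM per kilobase, followed by KLK2 at 22.0, KLK3 at 18.6, TMPRSS2 at 14.2, KLK11 at 7.19 and KLK15 at 2.58. In 22Rv1 with shCSN5 KLK3 and KLK4 lay close together, at 86.3 and 84.2 CPM per kilobase for KLK3 and 86.0 and 73.7 for KLK4. PC3 held next to none of the prostate kallikreins: KLK2 and KLK15 had no count in any of its 8 libraries, which allows up to 3 counts over a group, and KLK3 had at most 2 counts in a library. TMPRSS2 was the 1 gene of the 7 that was tested in all 8 comparisons.

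**Figure D1:**
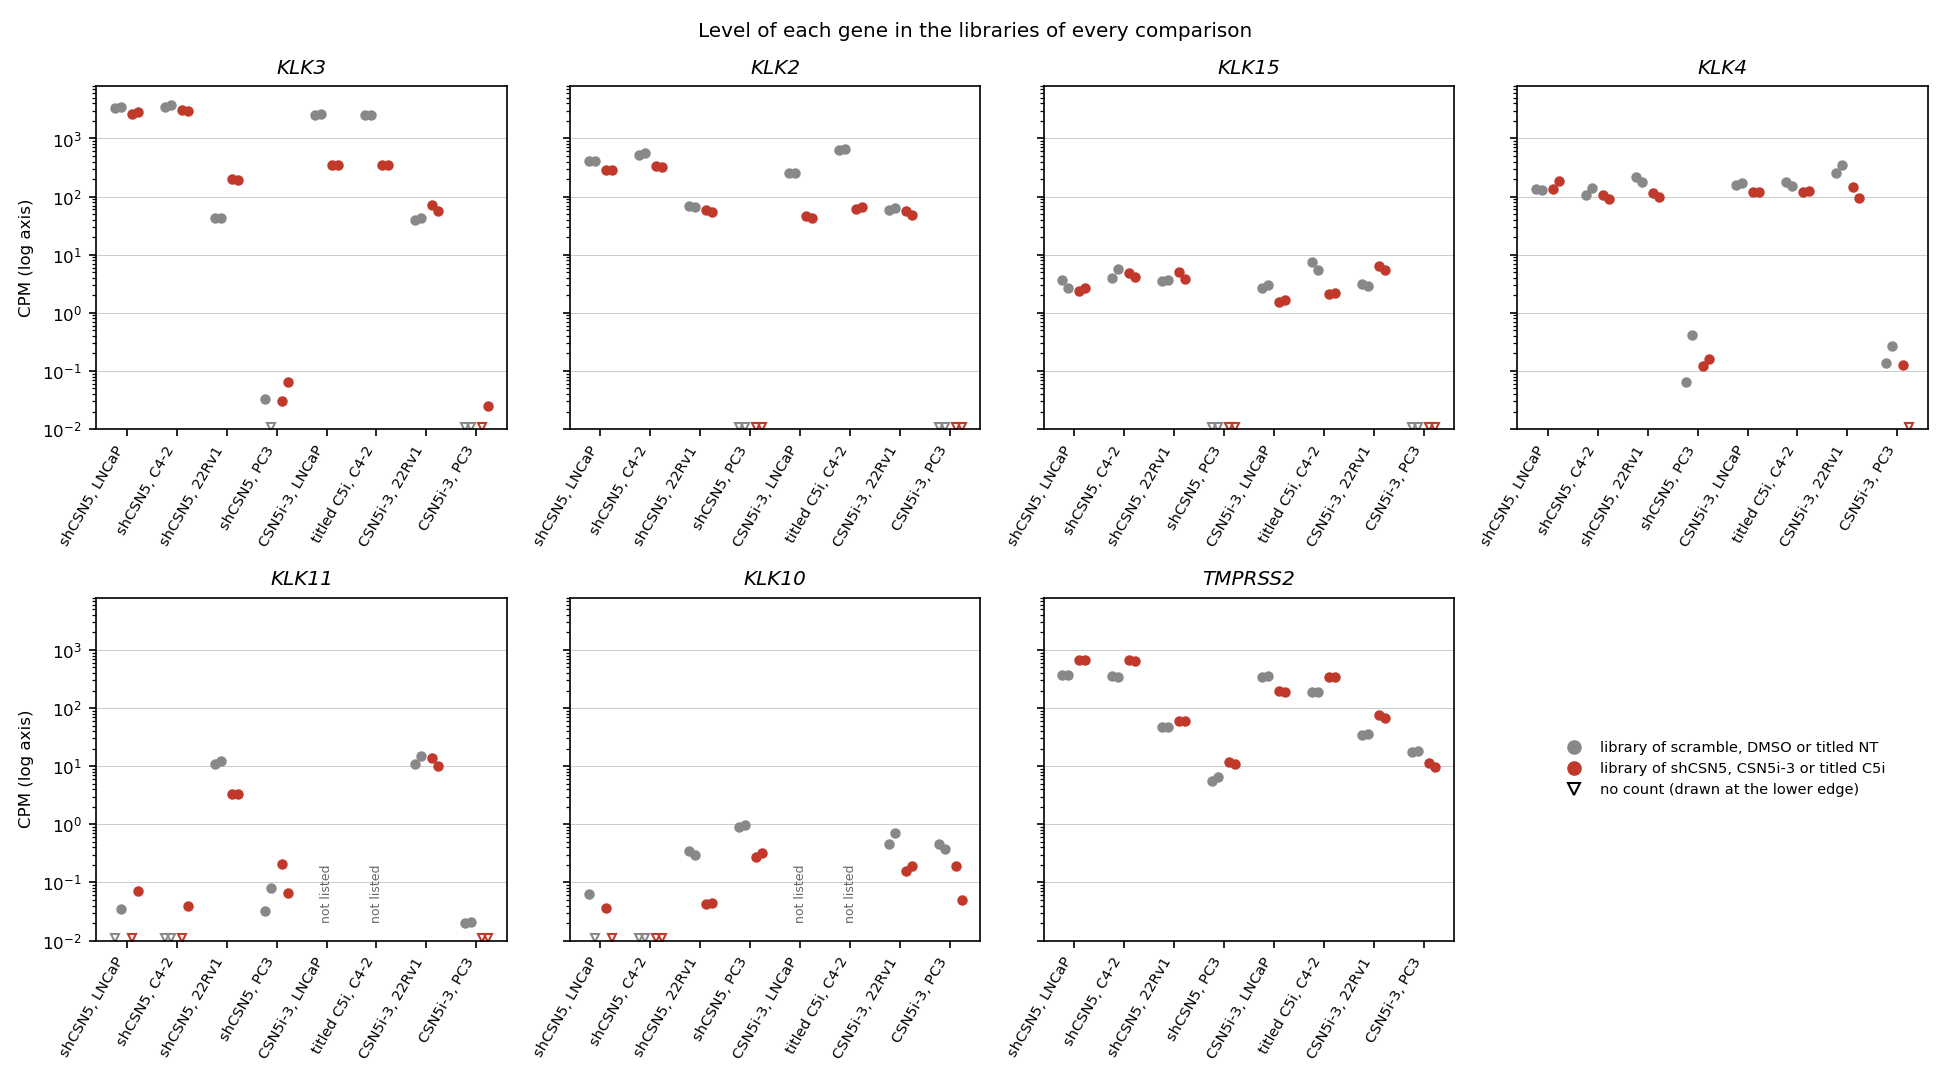
Level of each of the 7 genes in CPM (log axis) in the libraries of the 8 comparisons, grey for scramble, DMSO or titled NT and red for shCSN5, CSN5i-3 or titled C5i; open triangles are libraries with no count. Titles and descriptions conflict for the C4-2 inhibitor libraries. KLK3 lies at 2497 to 3789 CPM in the grey libraries of LNCaP and C4-2, at 39.0 to 42.8 CPM in those of 22Rv1, and near 0 in PC3.

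KLK3 moved in opposite directions in LNCaP and 22Rv1 under the inhibitor. In LNCaP the DMSO libraries held 2523 and 2598 CPM and the CSN5i-3 libraries 353 and 351 CPM, a fall of -2.86 ± 0.053, or 7.28-fold. In 22Rv1, at the same 5 µM, KLK3 went from 39.0 and 42.8 CPM with DMSO to 70.9 and 57.3 CPM with CSN5i-3, a rise of 0.65 ± 0.17, or 1.57-fold. The groups did not overlap in either line, and the inhibitor brought the lines closer: LNCaP held 62.6-fold more KLK3 than 22Rv1 with DMSO and 5.48-fold more with CSN5i-3, levels scaled in separate tables. The LNCaP change minus the 22Rv1 change was -3.51 ± 0.18. The 22Rv1 call was the less stable: it was lost, with the direction kept, without DMSO replicate 1 (0.58), DMSO replicate 2 (0.71) or CSN5i-3 replicate 1 (0.54).

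With shCSN5 the rise in 22Rv1 was larger and LNCaP and C4-2 changed little. KLK3 in 22Rv1 stood at 42.6 and 42.3 CPM with scramble and at 198 and 193 CPM with shCSN5, a rise of 2.20 ± 0.079, or 4.59-fold. In LNCaP it stood at 3312 and 3413 CPM under scramble shRNA and at 2651 and 2871 CPM under shCSN5 (-0.28 ± 0.11, not called). In C4-2 it was 3442 and 3789 CPM against 3109 and 2926 CPM (-0.26 ± 0.092, not called). Both shCSN5 libraries lay below both scramble libraries in LNCaP and in C4-2, although neither difference passed the test. In LNCaP the call turned positive without shCSN5 replicate 1 (-0.22) or without shCSN5 replicate 2 (-0.34), the pair of libraries that stood apart. The pair of C4-2 libraries titled NT held 2518 and 2497 CPM and the pair titled C5i 345 and 355 CPM, so that titled C5i minus titled NT was -2.84 ± 0.060. Over the 16 groups the KLK3 levels ran from C4-2 and LNCaP scramble, the highest, through LNCaP CSN5i-3 and C4-2 titled C5i, whose ranges overlapped at 345 to 355 CPM, to 22Rv1 and PC3. The other neighbours whose ranges overlapped were 22Rv1 scramble and 22Rv1 DMSO, and the PC3 groups.

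KLK2 encodes human kallikrein 2, a trypsin-like protease that can activate the PSA precursor. It fell strongly with the inhibitor in LNCaP and did not share the rise of KLK3 in 22Rv1. In LNCaP DMSO gave 255 and 253 CPM, and CSN5i-3 gave 45.9 and 42.1 CPM, a fall of -2.53 ± 0.072, or 5.78-fold. In 22Rv1 DMSO gave 59.6 and 63.3 CPM, and CSN5i-3 gave 56.6 and 47.7 CPM (-0.24 ± 0.16, not called), with no overlap between the groups. In C4-2 the titled NT libraries held 643 and 660 CPM and the titled C5i libraries 62.0 and 66.2 CPM (-3.35 ± 0.073), the largest change of any of the 7 genes in any comparison.

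KLK2 fell with shCSN5 in the 3 lines that express it. In C4-2 it moved from 516 and 573 CPM with scramble to 337 and 318 CPM with shCSN5 (-0.74 ± 0.095). In LNCaP it moved from 407 and 405 CPM to 290 and 288 CPM (-0.49 ± 0.11). In 22Rv1 it moved from 69.3 and 65.3 CPM to 58.5 and 55.4 CPM (-0.24 ± 0.088). All shCSN5 libraries lay below all scramble libraries of their line. The LNCaP call was lost without scramble replicate 1 (-0.49) or scramble replicate 2 (-0.50). The 22Rv1 call was lost with DESeq2 (-0.25), with total-count scaling (-0.18), with the spread shared between lines (-0.22), and without scramble replicate 1 (-0.20), shCSN5 replicate 1 (-0.25) or shCSN5 replicate 2 (-0.21).

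The balance between KLK3 and KLK2 within a library, which needs no scaling between libraries, shifted in 22Rv1 under both treatments. With shCSN5 it moved the same way, by less, in LNCaP and C4-2. With scramble the 22Rv1 libraries held 0.615 and 0.649 KLK3 counts per KLK2 count, and with shCSN5 3.38 and 3.48. With DMSO the ratios were 0.655 and 0.675, and with CSN5i-3 1.25 and 1.20. In LNCaP they were 9.90 and 10.3 with DMSO and 7.69 and 8.33 with CSN5i-3, a small shift beside the fall of both genes. KLK2 was thus the more counted of the pair in 22Rv1 with scramble or DMSO and KLK3 in every other group of the 3 lines. In C4-2 they were 6.67 and 6.61 with scramble and 9.23 and 9.22 with shCSN5, without overlap. In the LNCaP knockdown they were 8.14 and 8.43 with scramble and 9.14 and 9.98 with shCSN5, also without overlap. The ratio of KLK3 to KLK4 did not separate in the C4-2 knockdown, at 32.8 and 26.7 with scramble and 29.5 and 31.7 with shCSN5. In LNCaP it went from 15.9 and 14.9 with DMSO to 2.91 and 2.93 with CSN5i-3, and from 24.4 and 26.7 with scramble to 19.4 and 15.5 with shCSN5. In 22Rv1 it went from 0.194 and 0.236 with scramble to 1.71 and 1.94 with shCSN5.

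**Figure D2:**
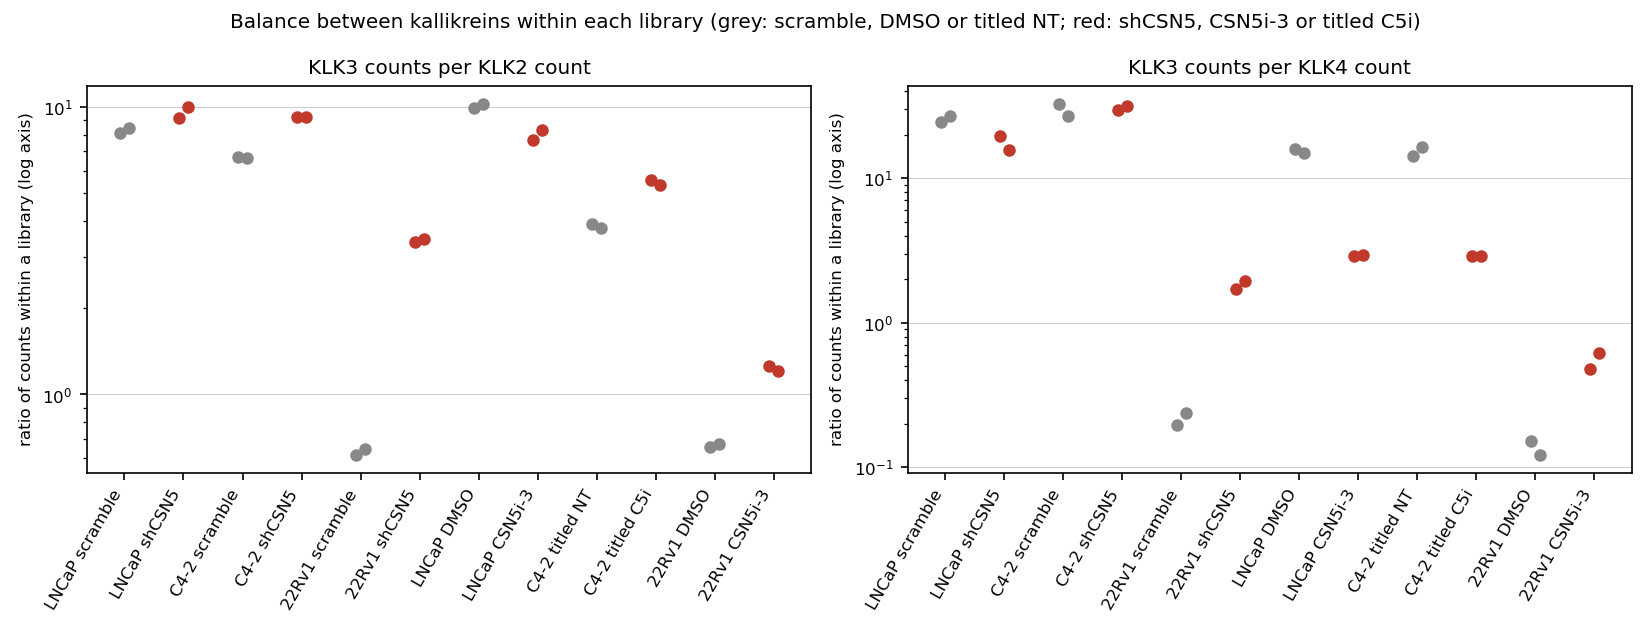
KLK3 counts per KLK2 count (left) and per KLK4 count (right) in each library of LNCaP, C4-2 and 22Rv1, on log axes, grey for scramble, DMSO or titled NT and red for shCSN5, CSN5i-3 or titled C5i. Titles and descriptions conflict for the C4-2 inhibitor libraries. In 22Rv1 the ratio to KLK2 moves from 0.615 and 0.649 with scramble to 3.38 and 3.48 with shCSN5, and in LNCaP the ratio to KLK4 moves from 15.9 and 14.9 with DMSO to 2.91 and 2.93 with CSN5i-3.

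KLK15, a low-abundance kallikrein that lies next to KLK3 in the cluster, split between LNCaP and 22Rv1 under the inhibitor in the way KLK3 did. In LNCaP it moved from 2.69 and 2.96 CPM with DMSO to 1.54 and 1.63 CPM with CSN5i-3 (-0.83 ± 0.17). In 22Rv1 it moved from 3.14 and 2.85 CPM to 6.33 and 5.49 CPM (0.98 ± 0.20, or 1.97-fold), a call lost without DMSO replicate 2 (0.90). The LNCaP change minus the 22Rv1 change was -1.81 ± 0.26. In C4-2 the titled NT libraries held 7.51 and 5.53 CPM and the titled C5i libraries 2.15 and 2.23 CPM (-1.57 ± 0.20). With shCSN5 no change was called. The KLK15 libraries of scramble and shCSN5 overlapped in LNCaP (3.74 and 2.64 against 2.42 and 2.65 CPM) and in C4-2 (4.02 and 5.65 against 4.83 and 4.17 CPM). In 22Rv1 they did not overlap, at 3.56 and 3.62 CPM with scramble and 5.09 and 3.82 CPM with shCSN5 (0.31 ± 0.19).

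KLK4, a protease also known for its part in tooth enamel maturation, fell in 22Rv1 under both treatments, where KLK3 rose. With shCSN5 it moved from 219 and 179 CPM to 115.8 and 99.2 CPM (-0.89 ± 0.11, or 1.85-fold). With CSN5i-3 it moved from 255 and 353 CPM to 149 and 93.6 CPM (-1.33 ± 0.26, or 2.51-fold). Neither pair of groups overlapped. In LNCaP the fall with CSN5i-3 was smaller, from 158 and 175 CPM to 121 and 120 CPM (-0.46 ± 0.071). In C4-2 the titled NT libraries held 177 and 153 CPM and the titled C5i libraries 120 and 124 CPM (-0.44 ± 0.085). With shCSN5 KLK4 was not called in LNCaP (136 and 128 CPM against 137 and 185 CPM, 0.29 ± 0.17) or C4-2 (105 and 142 CPM against 106 and 92.2 CPM, -0.32 ± 0.15), and the groups overlapped in C4-2. The LNCaP difference passed the test without shCSN5 replicate 1, the lower of the pair, at 0.50. In PC3 the counts were 2 and 10 with scramble, 4 and 5 with shCSN5, 7 and 13 with DMSO, and 6 and 0 with CSN5i-3, below the count filter.

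KLK11 and KLK10, kallikreins of the far end of the cluster that are made in many epithelia, were expressed in few of these lines. KLK11 was above the filter in 22Rv1 alone. It moved from 11.1 and 12.1 CPM with scramble to 3.32 and 3.38 CPM with shCSN5 (-1.79 ± 0.16, or 3.46-fold), with no overlap. With the inhibitor the 22Rv1 libraries overlapped, DMSO giving 10.9 and 14.9 CPM and CSN5i-3 13.6 and 9.89 CPM (-0.13 ± 0.25, not called). The inhibitor change minus the knockdown change was 1.66 ± 0.30. In PC3 KLK11 had 1 and 2 counts with scramble and 7 and 2 with shCSN5, a ratio of 2.60 with a 95% counting interval from 0.649 to 14.9, so a difference was not detectable at this depth.

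KLK10 was low in every line and was lower in the treated libraries of 22Rv1 and PC3. In PC3 it moved from 0.909 and 0.979 CPM with scramble to 0.272 and 0.326 CPM with shCSN5, from 28 and 24 counts to 9 and 10 (-1.65 ± 0.30). With the inhibitor it went from 23 and 18 counts with DMSO to 9 and 2 with CSN5i-3 in PC3 (-1.69 ± 0.51), and from 18 and 25 to 6 and 7 in 22Rv1 (-1.72 ± 0.44). In 22Rv1 with shCSN5 it was under the filter, with 7 and 7 counts against 1 and 1, a ratio of 0.136 with a 95% counting interval from 0.0150 to 0.592. Control and treated libraries did not overlap in any of these 4 comparisons, which is a description and no test. The KLK10 calls rest on few counts: both inhibitor calls were lost with DESeq2 (-1.70 in 22Rv1 and -1.73 in PC3), and DESeq2 gave KLK10 no adjusted p in the PC3 knockdown. They were also lost without 1 library: in 22Rv1 without DMSO replicate 2 (-1.40) or CSN5i-3 replicate 1 (-1.51), in PC3 without CSN5i-3 replicate 2 (-1.07), and in the PC3 knockdown without shCSN5 replicate 1 (-1.52) or replicate 2 (-1.78). KLK10 exons overlap 240 bases of an antisense gene, AC011473.2, in GENCODE 29, and as the strand counted is not given its reads and those of that gene may be mixed.

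TMPRSS2 rose with shCSN5 in all 4 lines and went both ways with the inhibitor. In LNCaP it moved from 369 and 373 CPM with scramble to 675 and 673 CPM with shCSN5 (0.86 ± 0.11, or 1.82-fold). In C4-2 it moved from 355 and 343 CPM to 681 and 656 CPM (0.94 ± 0.086, or 1.91-fold). In 22Rv1 the rise was smaller, from 47.0 and 47.5 CPM to 59.6 and 59.6 CPM (0.34 ± 0.087). In PC3, where the level was lowest, it moved from 5.59 and 6.61 CPM to 11.6 and 10.7 CPM (0.87 ± 0.16). Every shCSN5 library lay above every scramble library of its line. The call was lost, at nearly the same size, in LNCaP without scramble replicate 1 (0.85) or replicate 2 (0.87), in 22Rv1 without shCSN5 replicate 1 (0.36) or replicate 2 (0.33), and in PC3 without shCSN5 replicate 1 (0.81) or replicate 2 (0.93).

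With CSN5i-3 TMPRSS2 fell in LNCaP, from 342 and 350 CPM with DMSO to 197 and 192 CPM (-0.83 ± 0.058). It fell in PC3 at 10 µM, from 17.5 and 18.5 CPM to 11.3 and 9.86 CPM (-0.76 ± 0.072). It rose in 22Rv1, from 34.0 and 35.3 CPM to 76.5 and 68.6 CPM (1.07 ± 0.15, or 2.09-fold). No control and treated libraries overlapped. In C4-2 it was the 1 gene of the 5 listed that was higher in the titled C5i libraries, at 344 and 349 CPM against 189 and 191 CPM in titled NT (0.87 ± 0.066). The inhibitor change minus the knockdown change, from separate experiments, was -1.69 ± 0.12 in LNCaP, -1.64 ± 0.18 in PC3 and 0.73 ± 0.18 in 22Rv1. Against the controls of each experiment, TMPRSS2 was thus higher with shCSN5 and lower with CSN5i-3 in LNCaP and PC3, and higher with both in 22Rv1. In PC3 it was the controls that differed, at 5.59 and 6.61 CPM with scramble and 17.5 and 18.5 CPM with DMSO. The treated PC3 libraries overlapped, at 11.6 and 10.7 CPM with shCSN5 and 11.3 and 9.86 CPM with CSN5i-3, levels scaled in separate tables. For KLK3 the same difference was -2.58 ± 0.12 in LNCaP and -1.55 ± 0.19 in 22Rv1.

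**Figure D3:**
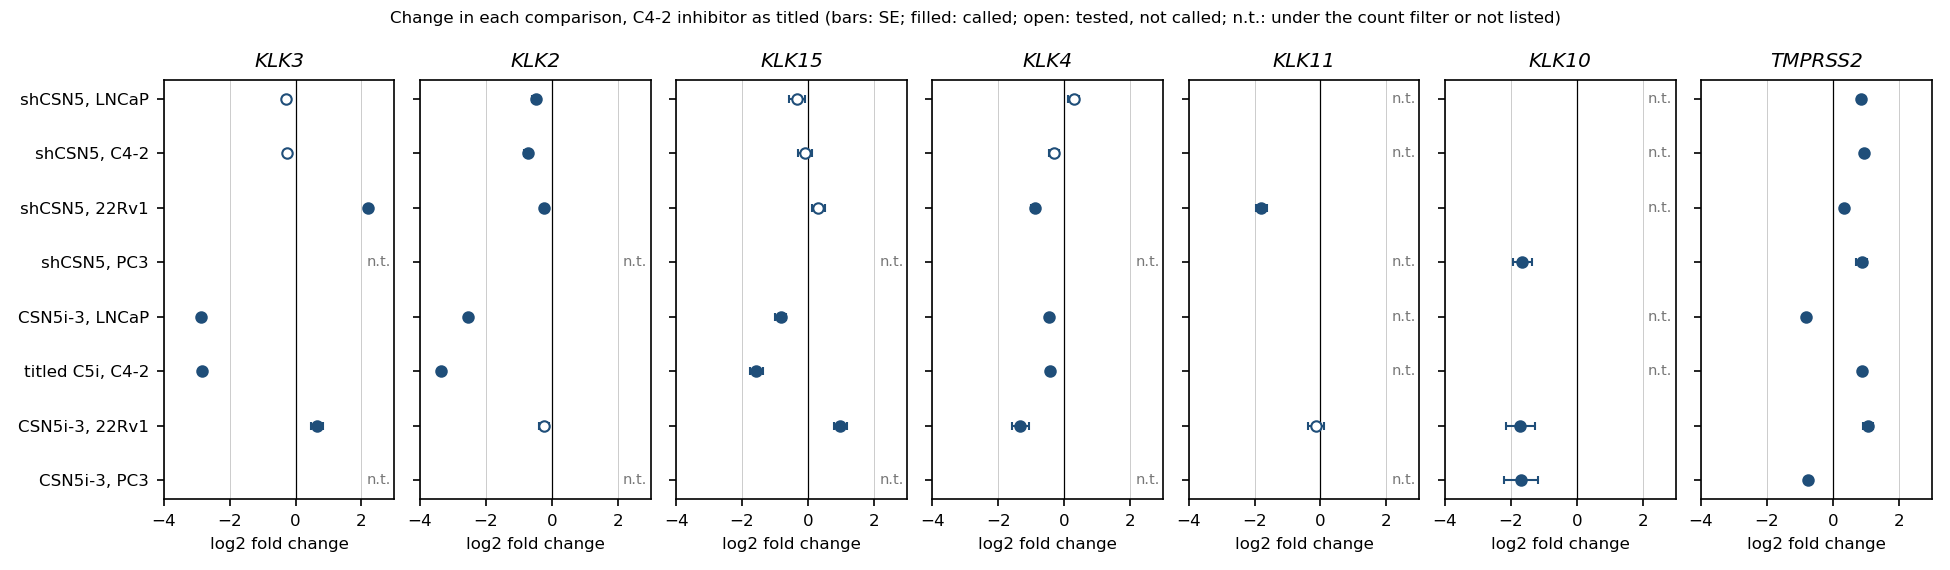
Log2 fold change, treated minus control, of each of the 7 genes in the 8 comparisons, with bars for the SE; filled points were called, open points were tested and not called, and n.t. marks genes under the count filter or not listed. Titles and descriptions conflict for the C4-2 inhibitor libraries. KLK3 lies at 2.20 in 22Rv1 with shCSN5 and at -2.86 in LNCaP with CSN5i-3, and TMPRSS2 lies above 0 with shCSN5 in all 4 lines.

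The counts of called members stand beside the share of all genes called, from which nothing is read, since these contrasts chose the genes. With shCSN5, 2 of 5 tested members were called in LNCaP (1 higher and 1 lower, where 35.7% of all genes tested were called, 18.3% higher and 17.4% lower), 2 of 5 in C4-2 (1 higher and 1 lower, beside 32% of all genes, 15.7% higher and 16.2% lower), 5 of 6 in 22Rv1 (2 higher and 3 lower, beside 43.9%, of which 22.6% higher and 21.3% lower) and 2 of 2 in PC3 (1 higher and 1 lower, beside 16.7%, of which 10.3% higher and 6.41% lower). With the inhibitor, 5 of 5 were called in LNCaP (0 higher and 5 lower, beside 52.6%; 26.2% of all genes were higher and 26.5% lower), 5 of 7 in 22Rv1 (3 higher and 2 lower, beside 24%, of which 11.8% higher and 12.2% lower) and 2 of 2 in PC3 (0 higher and 2 lower, beside 77.1%, of which 38.5% higher and 38.5% lower). Between the titled C4-2 pairs 5 of 5 were called (1 higher and 4 lower, beside 74.9%, of which 37% higher and 37.9% lower). The remaining members were under the count filter or not listed: 2 each in the LNCaP and C4-2 knockdowns, 1 in the 22Rv1 knockdown, 5 in each PC3 comparison, and KLK10 and KLK11 in both inhibitor tables that do not list them.

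FOXA1, a forkhead factor that opens chromatin in luminal prostate cells, fell in 22Rv1 while KLK3 rose. With shCSN5 the 22Rv1 level of FOXA1 was 388 and 415 CPM in the scramble libraries and 285 and 278 CPM in the shCSN5 libraries (change -0.51 ± 0.076, adjusted p = 0.000268). In LNCaP FOXA1 fell with CSN5i-3 (change -0.72 ± 0.058, adjusted p = 6.85e-05), where KLK3 and KLK2 fell too, and had no call with shCSN5 (0.16 ± 0.11, adjusted p = 0.312). HOXB13, a prostate homeobox factor, fell in LNCaP with CSN5i-3 (change -1.05 ± 0.081, adjusted p = 5.69e-05) and in PC3 at 10 µM (change -1.99 ± 0.029, adjusted p = 1.33e-52). With CSN5i-3 it was not called in 22Rv1 (0.27 ± 0.20, adjusted p = 0.359). HOXB13 also fell in LNCaP with shCSN5 (change -0.58 ± 0.15, adjusted p = 0.0298), by -0.79 to -0.39 without 1 library. GATA2, a zinc finger factor, fell in 22Rv1 with shCSN5 (change -1.11 ± 0.11, adjusted p = 1.43e-05).

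A list of 24 other androgen-induced genes gives the members' setting. With shCSN5, of the genes tested, 9 of 24 rose and 8 fell in LNCaP (median change -0.03, beside 35.7% of all genes called), 3 of 24 rose and 16 fell in C4-2 (median -0.85, beside 32%), 4 of 23 rose and 14 fell in 22Rv1 (median -0.44, beside 43.9%), and 6 of 20 rose and 2 fell in PC3 (median 0.14, beside 16.7%). With CSN5i-3, 4 of 23 rose and 17 fell in LNCaP (median -0.96, beside 52.6%), 3 of 23 rose and 9 fell in 22Rv1 (median -0.23, beside 24%), and 12 of 21 rose and 7 fell in PC3 (median 0.35, beside 77.1%). Between the titled C4-2 pairs 2 of 24 were higher and 22 lower (median -1.54, beside 74.9%). Medians over all genes tested lay between -0.04 and 0.04. In 22Rv1 with shCSN5 the KLK3 change stood above those of all 23 tested list genes, the highest of which was 1.69, and KLK11 stood below 22 of them. In LNCaP with CSN5i-3 KLK3 stood below all 23, the lowest of which was -2.56, and KLK2 below 22. Elsewhere KLK3 lay within the list. With shCSN5 it stood above 11 of 24 list genes in LNCaP and above 17 of 24 in C4-2. With CSN5i-3 in 22Rv1 it stood above 20 of 23. KLK3 was chosen by its changes in these libraries, so nothing is read from its place in the list. TMPRSS2 stood above 23 of 24 list genes in C4-2 with shCSN5 and above 21 of 24 in LNCaP. Within the list NDRG1, a stress-responsive gene, fell in C4-2 with shCSN5 by 0.94 on the log2 scale and rose in 22Rv1 by 0.44. The number of list genes called in the LNCaP knockdown dropped from 17 to 7 without scramble replicate 1 or scramble replicate 2, and that in the PC3 knockdown went from 8 to 4 without shCSN5 replicate 1 and to 5 without shCSN5 replicate 2.

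**Figure D4:**
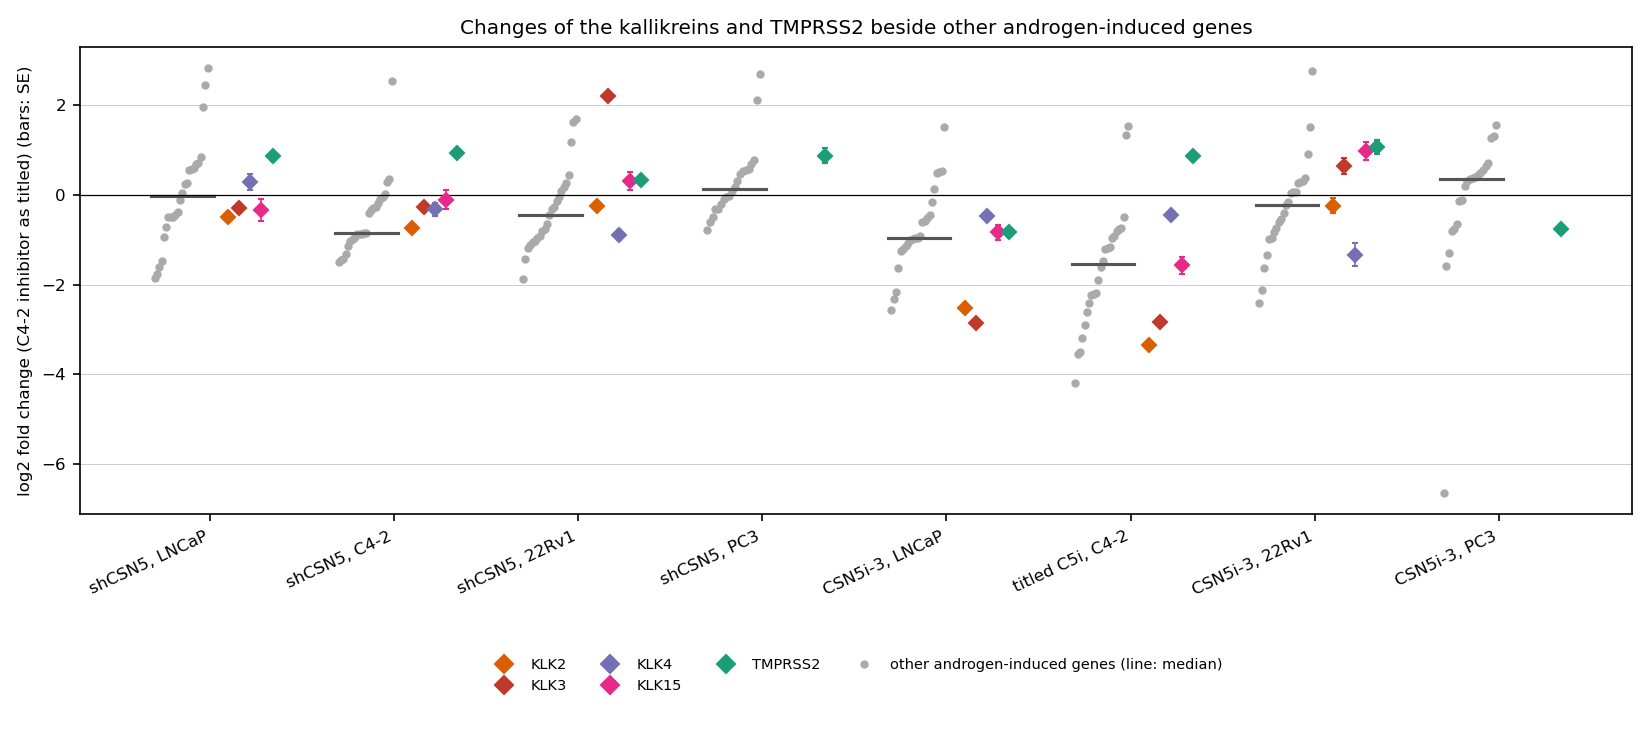
Log2 fold change, treated minus control, of the other androgen-induced genes (grey points, with a line at their median) and of KLK2, KLK3, KLK4, KLK15 and TMPRSS2 (diamonds), with bars for the SE, in the 8 comparisons; list genes with 3 or fewer counts in a group are drawn at the change given by 3 counts or by their counts. Titles and descriptions conflict for the C4-2 inhibitor libraries. KLK3 lies above all 23 list genes in 22Rv1 with shCSN5 and below all 23 in LNCaP with CSN5i-3. It lies within the list in the other comparisons where it was tested, and it was chosen by these changes.

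Of the 10 other genes of the cluster, few were expressed. KLKP1, a kallikrein pseudogene that lies between KLK2 and KLK4, fell in LNCaP with CSN5i-3, from 5.11 and 5.25 CPM to 2.01 and 2.04 CPM (change -1.35 ± 0.14, adjusted p = 0.00022). In 22Rv1 KLKP1 fell with shCSN5, from 9.22 and 10.6 CPM to 6.08 and 5.93 CPM (-0.73 ± 0.15, adjusted p = 0.00259), where its neighbour KLK2 fell and KLK3 rose. KLK1, tissue kallikrein, at 42.2 and 42.5 CPM with scramble and 40.2 and 37.3 CPM with shCSN5 in 22Rv1, was not called there (adjusted p = 0.317). In RefSeq order the cluster runs KLK1, KLK15, KLK3, KLK2, KLKP1, KLK4, then KLK5 to KLK9, KLK10, KLK11 and on to KLK14, so that in 22Rv1 with shCSN5 the gene that rose lay between the uncalled KLK15 and KLK2, which fell.

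Of other membrane-anchored serine proteases tested with shCSN5, 3 of 7 rose in LNCaP (beside 18.3% of all genes higher), 2 of 7 in C4-2 (beside 15.7%), 5 of 6 in 22Rv1 (beside 22.6%) and 2 of 2 in PC3 (beside 10.3%), with none lower. The LNCaP count rests on single libraries: 5 rose without shCSN5 replicate 1, and 2 rose and 5 fell without shCSN5 replicate 2. In C4-2 1 rose without scramble replicate 1. With CSN5i-3, 3 of 5 rose in LNCaP (beside 26.2% higher) and 2 of 6 in 22Rv1 (beside 11.8%) with none lower, and 1 of 6 rose and 3 fell in PC3, where 77.1% of all genes were called. The number called was 1 in LNCaP without CSN5i-3 replicate 1, 5 in 22Rv1 without CSN5i-3 replicate 2 and 2 in PC3 without DMSO replicate 1. PRSS8, prostasin, rose in 22Rv1 with shCSN5 by 1.06 on the log2 scale, and in LNCaP its change of -0.45 was not called.

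Of 13 inhibitors of such proteases, those tested with shCSN5 gave 2 of 7 higher in LNCaP (beside 18.3% of all genes), 2 of 5 in C4-2 (beside 15.7%), 2 of 7 in 22Rv1 (beside 22.6%) and 3 of 7 in PC3 (beside 10.3%), none lower. Without shCSN5 replicate 2 of LNCaP 2 were higher and 3 lower. The count was 1 in C4-2 without scramble replicate 2, and 1 in 22Rv1 without scramble replicate 1, scramble replicate 2 or shCSN5 replicate 2. With CSN5i-3 the inhibitors gave 5 higher and 1 lower of 6 in LNCaP (beside 52.6% of all genes called), 3 higher of 8 in 22Rv1 (beside 24%), and 1 higher and 5 lower of 6 in PC3 (beside 77.1%). SPINT1, which encodes HAI-1, an inhibitor of this protease class, rose in LNCaP (1.01) and fell in PC3 (-1.14) with CSN5i-3. ELF3, 1 of 10 ETS factors listed, rose in all 7 comparisons whose labels do not conflict, by between 1.37 and 3.03 on the log2 scale, also where KLK3 fell. With CSN5i-3, 5 of 8 tested ETS factors were higher and 3 lower in LNCaP (beside 52.6% of all genes called). In 22Rv1 4 of 7 were higher and 0 lower (beside 24%), and in PC3 2 of 9 were higher and 7 lower (beside 77.1%). With shCSN5 2 were higher and 1 lower of 7 in LNCaP (beside 35.7%), and 4 and 1 of 6 in C4-2 (beside 32%). In 22Rv1 it was 5 and 1 of 7 (beside 43.9%) and in PC3 5 and 0 of 9 (beside 16.7%). EHF changed by -2.75 in PC3 with CSN5i-3 and by 1.42 with shCSN5. Of 10 substrates and receptors of these proteases, those tested with CSN5i-3 gave 4 higher and 2 lower of 7 in LNCaP (beside 52.6% of all genes called), 4 higher and 2 lower of 7 in 22Rv1 (beside 24%), and 2 higher and 6 lower of 8 in PC3 (beside 77.1%). Without DMSO replicate 2 the 22Rv1 count was 3 higher and 0 lower. IGFBP3, which encodes an IGF carrier protein that PSA can cut, changed with shCSN5 by 2.92 in LNCaP and by -1.67 in C4-2.

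Over the 16 group means of log2 CPM, KLK2 and KLK3 had a Pearson correlation of 0.967, KLK3 and TMPRSS2 one of 0.957, and KLK15 and TMPRSS2 the lowest among these members, 0.674. These are descriptions with no test, since the 16 points come from 4 lines that differ in level. KLK2, KLK3 and KLK15 were at or near 0 in every PC3 group. Each member was set beside 11603 genes present in all tables whose highest group mean was at least 5 CPM. Among them the levels most like those of KLK3 were ALOX15 (0.985), LRIG1 (0.983) and FAM174B (0.979), and those most like KLK2 were GLB1L2 (0.978) and EHF (0.976). For TMPRSS2 they were LITAF (0.979), FRMPD1 (0.974) and PPFIBP2 (0.973), for KLK4 PAFAH1B3 (0.989), AP1M2 (0.988) and ATP6V0A1 (0.987), and for KLK15 PLXDC2 (0.966), BDH1 (0.948) and MRRF (0.945).

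Leukocyte, fibroblast and endothelial markers were also summed in each library. The summed level of the leukocyte list ran from 0.256 to 5.29 CPM outside the LNCaP and C4-2 inhibitor tables. In LNCaP it was 0.356 and 0.477 CPM under DMSO against 25.3 and 24.9 CPM under CSN5i-3, where 3 of its 7 genes are listed and CD68 made up 24.8 CPM on average. In the C4-2 inhibitor table it was 15.4 and 15.01 CPM in titled NT and 51.5 and 53.0 CPM in titled C5i. In the knockdowns the leukocyte sum was higher in both shCSN5 libraries than in both scramble libraries of every line. Of the leukocyte genes tested there, 1 of 2 rose in LNCaP (beside 18.3% of all genes higher) and 1 of 1 in C4-2 (beside 15.7%). In 22Rv1 2 of 2 rose (beside 22.6%) and in PC3 1 of 2 (beside 10.3%), with none lower. These counts rest on 1 or 2 genes a line at low levels. The LNCaP call was LYZ, with 3 and 5 counts under scramble and 26 and 31 under shCSN5. Within that list the T cell markers CD3E and CD2 were at 0 in both groups of the LNCaP and 22Rv1 knockdowns. The fibroblast list ran from 3.05 to 66.4 CPM and the endothelial list reached 19.2 CPM at most. In PC3 with CSN5i-3, where TMPRSS2 and KLK10 fell, the fibroblast sum was 66.4 and 62.2 CPM under DMSO against 16.3 and 16.1 CPM. Of its tested genes 4 of 5 were lower, beside 38.5% of all genes. The endothelial sum there was 16.2 and 16.4 CPM under DMSO against 3.96 and 4.29 CPM, with 1 gene of that list tested. In LNCaP with CSN5i-3 the endothelial sum was 10.5 and 12.8 CPM under DMSO against 2.902 and 2.84 CPM. It is the level of 1 gene, since 1 of the 4 endothelial markers is listed there. The part of these lists in the changes of the 7 genes was not tested.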

How the data were processed

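The values deposited by the authors are whole-number gene counts, raw and not normalised, in 6 tables; Partek Flow is named in the submitters' processing notes, and for the aligner, genome build and strand the record is: not given in the sources used here. Each comparison of 2 against 2 libraries was fitted on its own 4 libraries with the quasi-likelihood test of edgeR 4.0.16 in R 4.3.3, after TMM scaling and filterByExpr with a minimum count of 10, and called at a Benjamini-Hochberg adjusted p under 0.05 over all genes tested. The SE was taken from the log2 change and the F statistic (absolute change over root F). Genes under the filter are given by counts, with a ratio and an exact binomial 95% interval that covers counting error only; a count of 0 allows up to 3 counts over a group. Nothing in the labels says that replicates came from separate cultures, so p-values measure the spread between these libraries, which may be technical. One PC3 shCSN5 library carries a label naming a drug, and its description, shCSN5, was used. CPM per kilobase used merged exons of GENCODE 29. Promoters were searched and aligned in Python 3.11.15 with Biopython 1.88. Alternatives were DESeq2 1.42.0, total-count scaling, no filter, a replicate block, a spread shared with the other line of a table (knockdown only) and leaving out each library. The fit was tested on simulated data. The genes and lists were chosen with earlier results of these data known. Named beside the 7 genes are prostate lineage factors, the 3 genes of highest mean CPM of each other list, and the 3 genes most like each member in level; CD68 was chosen after its values were seen. Some genes that this rule names are not reported here.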

Additional observations from a re-analysis of the deposited data

Results flagged for a closer look

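In the results below every treated library of one line lay above its controls and every treated library of another line lay below them, in the same experiment. Lying apart in this way is no call, and the share of all genes that did so was not counted. Some of the sides were not called, among them with shCSN5 in LNCaP KLK3 (-0.28), KLK4 (0.29), FOXA1 (0.16), PRSS8 (-0.45) and SPINT2 (-0.05). With shCSN5 in PC3 SFN (-1.10) was not called either. The values are the difference between the log2 changes of those lines. The differences were not tested, and no value is given for the titled C4-2 pairs.

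With shCSN5, KLK3 was higher in 22Rv1 and lower in LNCaP, a difference of 2.48, and KLK4 was higher in LNCaP and lower in 22Rv1, a difference of 1.18. The difference was 0.68 for FOXA1 (higher in LNCaP, lower in 22Rv1), 1.52 for PRSS8 (22Rv1, LNCaP), 0.39 for SPINT2 (PC3, LNCaP) and 2.32 for FN1 (PC3, LNCaP). It was 4.59 for IGFBP3 (LNCaP, C4-2), 1.52 for STEAP2 (PC3, 22Rv1), 1.39 for NDRG1 (22Rv1, C4-2), 1.04 for ACSL3 (PC3, C4-2), 1.73 for EHF (PC3, 22Rv1) and 3.24 for SFN (C4-2, PC3).

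With CSN5i-3 at 5 µM, KLK3 (3.51), KLK15 (1.81), TMPRSS2 (1.90) and FN1 (2.54) were higher in 22Rv1 and lower in LNCaP. Against PC3, which received 10 µM, PRSS8 (1.74), SPINT1 (2.16), IGFBP3 (3.14) and SFN (4.73) were higher in LNCaP and lower in PC3. SPINT2 (0.45), SERPINB6 (0.99) and KRT15 (4.06) were higher in 22Rv1 and lower in PC3. One side was small for KRT15, which changed by -0.083 in PC3, and for SERPINB6, which changed by 0.11 in 22Rv1. GATA2 (0.57), STEAP2 (1.16) and ACSL3 (0.91) were higher in PC3 and lower in LNCaP.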

How the results depend on the processing

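The members called were 5 of 5 in LNCaP with CSN5i-3 and 5 of 5 between the titled C4-2 pairs under every setting tried, and no called member changed direction. Of those not called, KLK15 in the C4-2 knockdown was 0.16 without scramble replicate 2, and KLK11 in 22Rv1 with CSN5i-3 was 0.11 without DMSO replicate 2 and 0.039 without CSN5i-3 replicate 2. Leaving out 1 library gave 0 to 4 called members in the LNCaP knockdown (2 with all libraries; 0 without scramble replicate 1 or 2), 3 to 5 in the 22Rv1 knockdown (5), 0 to 2 in the PC3 knockdown (2), 2 to 5 in 22Rv1 with CSN5i-3 (5), 1 to 3 in PC3 with CSN5i-3 (2), and 2 in the C4-2 knockdown each time. With DESeq2 the count was 1 in each PC3 comparison. Same-numbered libraries deviated together by correlations of -0.851 to 0.772, and with 2 pairs a comparison they share only a number. With the replicate block the LNCaP knockdown count was 1, where KLK2 (-0.49) was not called, and in 22Rv1 with CSN5i-3 it was 4, where KLK3 (0.64) was not called. With crossed numbers, chosen after seeing the data, the counts were 4 in the C4-2 knockdown, 5 in LNCaP with CSN5i-3, 5 between the titled C4-2 pairs and 6 in 22Rv1 with CSN5i-3. In the LNCaP knockdown the direction of some other genes depended on the library left out, without shCSN5 replicate 1 or replicate 2 in turn: GATA2 (0.27 and -0.38), KLKP1 (-0.34 and 0.36), ST14 (0.57 and -0.42), HPN (0.31 and -1.17), EHF (-0.25 and 0.063) and SPDEF (0.15 and -1.07); those libraries stood apart from each other. Depth limits KLK10 and KLK11, and KLK2, KLK3, KLK4 and KLK15 in PC3.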

Other observations

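KLK1 was at 4.52 to 4.75 CPM in the 4 C4-2 libraries of the inhibitor experiment and at 0.193 to 0.502 CPM in the 4 C4-2 libraries of the knockdown experiment, levels scaled in separate tables.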
